A study of Mus musculus with 30 samples.

Results

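Late-released cells of the mouse small intestinal epithelium were compared between mice given the aryl hydrocarbon receptor (AHR) ligand ICZ and mice given vehicle. The epithelium was taken off in 5 successive rounds with EDTA, which loosens cell contacts, and F4 and F5 are the last 2 fractions. The reads of F4 and F5 were added for each mouse, so 12 of the 29 labelled libraries entered as 6 sums, 3 from ICZ mice and 3 from vehicle mice. The ICZ mice received 10 µg of ICZ in corn oil by gavage, and the vehicle mice were gavaged without it. All 6 were female C57BL/6 mice aged 8 to 10 weeks that carry the label WT, for wild type. They had spent 1 week on the semi-purified AIN93G diet, which holds no AHR agonists, and all were sampled 12 h after dosing. Each mouse is labelled as a biological replicate, numbered 1 to 3 within its group. 3' tag libraries of total RNA were counted per gene, and levels are given below as CPM, counts per 1000000 reads after scaling between mice. Sums over gene lists are given as RPM, reads per 1000000 gene reads without that scaling.

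The AHR is a transcription factor that waits in the cytosol until a ligand binds it. It then enters the nucleus, pairs with ARNT and binds the xenobiotic response element, whose core is GCGTG, near genes such as Cyp1a1 that break the ligand down. In the gut its ligands come from plants of the cabbage family and from microbial tryptophan products, and the receptor is best known there for its part in barrier defence and in the balance between stem cell renewal and differentiation. The base of the crypt holds the Lgr5+ stem cells and the Paneth cells that make antimicrobial peptides, while cells further up divide and then mature as they move onto the villus.

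The sums held 10443731 to 14245532 reads on genes, from libraries of 4359673 to 7819837. Epcam and Krt19, which mark epithelium, stood at 1140 to 1317 CPM and at 1066 to 1386 CPM in the 6 sums. Some libraries stood apart from the rest. The F5 library of ICZ replicate 1 had 53.7% of its reads on mitochondrial transcripts, against 21.3% to 37.5% in the other 11, and the lowest sum over the Paneth cell list of the F5 libraries, at 3178 RPM. The F5 libraries of ICZ replicate 3 and vehicle replicate 3 held 1595 and 2443 RPM of 12 exocrine pancreas genes, while the other 10 libraries held 11.3 to 86.5. The F5 library of ICZ replicate 3 also had the most reads from the plasma cell and stroma lists.

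**Figure D1:**
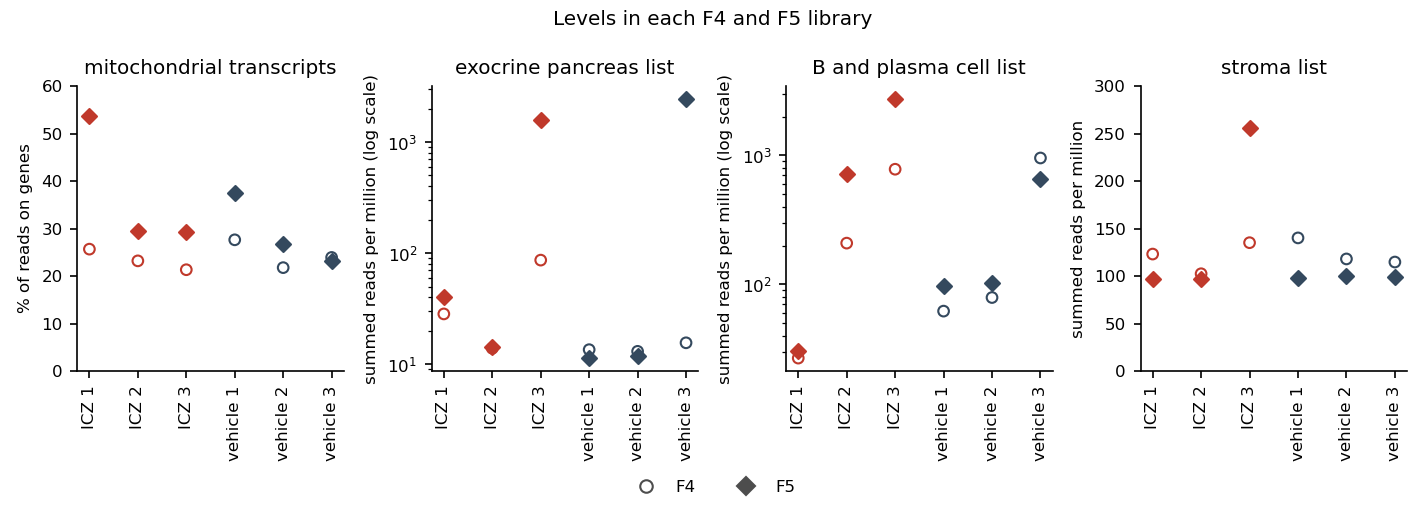
Reads in the 12 libraries that were added, ICZ mice left of vehicle mice, with open circles for F4 and filled diamonds for F5. The panels give the share of gene reads on mitochondrial transcripts in percent and the summed RPM of the exocrine pancreas, B and plasma cell (both on log axes) and stroma lists. F5 of ICZ replicate 1 stands highest for mitochondrial reads (53.7%), and both F5 libraries of replicate 3 stand highest for pancreas genes.

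The late fractions of the vehicle mice carried more crypt transcripts and fewer villus transcripts than the F2+F3 sums of the same mice. In a quasi-likelihood fit by edgeR that blocked on the mouse, 676 of 14400 genes (4.69%) were higher in F4+F5 and 659 (4.58%) were lower at an adjusted p under 0.05. In the list of crypt base stem cell genes, 8 of 18 were higher and none lower, and of the Paneth cell genes 5 of 17 were higher. Of the mitosis genes, 19 of 34 were higher. Of the absorptive enterocyte genes, 21 of 25 were lower, with a median log2 difference of -0.58. The early response genes, which are switched on within minutes of growth or stress signals without new protein synthesis, shifted too. Of these, 29 of 36 were higher in the late fractions, with a median log2 difference of 1.73. Egr1, a zinc finger factor of this class, stood at 350, 599 and 777 CPM in F4+F5 of the vehicle mice, against 43.5, 82.7 and 141 CPM in their F2+F3. Apoa4, an apolipoprotein of villus enterocytes, stood at 301, 220 and 146 CPM in F4+F5, against 598, 372 and 315 CPM in F2+F3. Without the mouse block 56 genes passed in place of 1335, and without vehicle replicate 2 or 3 the counts were 263 and 218.

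ICZ against vehicle gave no gene past an adjusted p of 0.05 among 13849 in the fit of the 6 sums without a block (0%), where 474 genes had an unadjusted p under 0.05. DESeq2 called 6 genes on the same sums (Cyp1a1, Cyp1a2, Acta1 and Col1a1 higher, H2-Aa and H2-Eb1 lower) and limma voom called Cyp1a2. Mice with the same replicate number deviated together from their group means (correlations 0.410, 0.101 and 0.433 over genes, the second barely above the threshold of 0.1), so the number was also entered as a block. With a prior count of 5 in place of 2 the second correlation was 0.0909, under that threshold. The labels state no shared litter or day, so this pairing rests on the data alone. With it, 30 of 14476 genes passed (0.207%): 10 were higher in ICZ mice (0.0691%) and 20 were lower (0.138%). The higher ones were Cyp1a1, Cyp1a2, Bco1, Tmem86b, Gja1, Dcn, Col3a1, Col1a1, Sparc and Serping1. The lower ones were Dusp5, Ier5, Rnd3, Fos, Jun, Junb, Btg2, Atf3, Hbegf, Srf, Trib1, Sertad1, Gdf15, Nabp1, Id2, Hspa1a, Hspa1b, Dnajb1, Dnajb9 and G6pc. Unless another fit is named, "rose" and "fell" below refer to edgeR's quasi-likelihood test with this block, and log2 fold changes are ICZ over vehicle. None of the 30 passed in the main fit without the block, so these words hold for the blocked fit only. All 30 kept their direction in each of the 12 alternative settings of the blocked fit, and 12 to 30 of them passed again. With 3 mice against 3, an exact permutation test of a single gene cannot go below a two-sided p of 0.1.

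The promoters below, from RefSeq on GRCm38.p6, run from 250 bases before to 50 bases after the annotated start, read 5′ to 3′ on the gene's strand. Cyp1a1 (chr9:57697363-57697662, plus strand) and Cyp1a2 (chr9:57683606-57683905, minus strand) are shown because they rose most. They are neighbours on chromosome 9 in opposite orientation, and capitals mark GCGTG on either strand, which 32.4% of 32851 promoters of this length hold.
Cyp1a1: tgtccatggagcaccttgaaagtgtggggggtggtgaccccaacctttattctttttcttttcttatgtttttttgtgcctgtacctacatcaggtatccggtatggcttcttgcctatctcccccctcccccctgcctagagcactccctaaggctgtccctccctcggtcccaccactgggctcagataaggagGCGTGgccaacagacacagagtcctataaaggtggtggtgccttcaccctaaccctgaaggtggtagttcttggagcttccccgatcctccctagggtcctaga
Cyp1a2: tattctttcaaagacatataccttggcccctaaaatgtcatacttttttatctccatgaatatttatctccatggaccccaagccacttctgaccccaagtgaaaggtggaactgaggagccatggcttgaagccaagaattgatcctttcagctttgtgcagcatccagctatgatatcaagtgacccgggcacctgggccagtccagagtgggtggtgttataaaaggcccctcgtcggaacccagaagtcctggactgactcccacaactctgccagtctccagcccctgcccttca
Srf (chr17:46556113-46556412, minus strand) and Dusp5 (chr19:53528895-53529194, plus strand) are shown as genes that fell together, and Acta1 (chr8:123894726-123895025, minus strand) as a gene with the same motif and the opposite direction. Capitals mark the CArG box, the site known to bind serum response factor, on either strand. It is present in 1.63% of the 32851 promoters and in 3 of 32 early response genes that have a promoter in the table.
Srf: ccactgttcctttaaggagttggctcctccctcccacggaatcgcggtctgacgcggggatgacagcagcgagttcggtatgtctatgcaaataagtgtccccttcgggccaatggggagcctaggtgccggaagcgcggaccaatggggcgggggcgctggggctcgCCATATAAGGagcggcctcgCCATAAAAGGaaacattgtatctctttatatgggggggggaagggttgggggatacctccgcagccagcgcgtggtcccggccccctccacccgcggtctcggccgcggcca
Dusp5: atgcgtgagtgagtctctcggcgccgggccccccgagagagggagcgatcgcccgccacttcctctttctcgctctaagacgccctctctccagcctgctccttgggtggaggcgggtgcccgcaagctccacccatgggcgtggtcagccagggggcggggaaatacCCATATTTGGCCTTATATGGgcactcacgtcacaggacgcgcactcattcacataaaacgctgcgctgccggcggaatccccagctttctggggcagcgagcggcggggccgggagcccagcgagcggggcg
Acta1: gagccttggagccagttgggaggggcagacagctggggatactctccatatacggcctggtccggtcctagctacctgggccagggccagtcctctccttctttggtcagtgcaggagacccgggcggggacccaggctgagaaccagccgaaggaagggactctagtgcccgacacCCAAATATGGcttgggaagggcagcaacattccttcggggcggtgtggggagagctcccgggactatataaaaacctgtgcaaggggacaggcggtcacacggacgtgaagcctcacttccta
Hspa1a (chr17:34972107-34972406, minus strand) is shown for the heat shock chaperones that fell. Capitals mark GAANNTTC or TTCNNGAA, inverted units of the heat shock element, which 15.1% of the 32851 promoters and 9 of 13 heat shock chaperone genes hold. The window of Dnajb1, which also fell, has no match, while that of Hspa1b has 1.
Hspa1a: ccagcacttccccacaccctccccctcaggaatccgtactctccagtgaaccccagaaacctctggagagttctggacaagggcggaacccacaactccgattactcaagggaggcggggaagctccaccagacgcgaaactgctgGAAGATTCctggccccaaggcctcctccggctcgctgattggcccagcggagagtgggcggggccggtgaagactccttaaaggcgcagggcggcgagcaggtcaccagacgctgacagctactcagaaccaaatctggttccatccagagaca
The GCGTG of Cyp1a1 lies 54 bases before the start and does not overlap the CArG match that lies 32 bases before it. The Cyp1a2 window holds none of these motifs, and the windows of Bco1, Tmem86b and Id2 hold none either. A match says only that the letters are there.

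Among the AHR genes, Cyp1a1 and Cyp1a2 rose and the other measured members did not pass the test. Of the 9 members, 6 passed the filter on low counts. Cyp1a1 (ENSMUSG00000032315.6), the cytochrome P450 that oxidises many AHR ligands, stood at 58.9, 25.9 and 10.8 CPM in the 3 ICZ mice, against 0.0939, 0.065 and 0 CPM in the vehicle mice. The mean was 31.9 ± 24.6 CPM in ICZ mice and 0.0530 ± 0.0481 CPM in vehicle mice (SD, n = 3 each). The groups do not overlap, and the ICZ mice themselves range widely. The pooled reads were 1071 in ICZ mice and 2 in vehicle mice, a ratio of 605 per effective library size with a 95% exact interval of 167 to 5005 that covers counting error only. The ratio was 383 without ICZ replicate 1 and 398 without vehicle replicate 3. Without the block the log2 fold change was 9.03 ± 1.14 and did not pass. With it the log2 fold change was 8.93 ± 0.32 (SE) with an edgeR adjusted p of 1.87e-11, and all 12 alternative settings of the blocked fit called it. Cyp1a2 (ENSMUSG00000032310.4), its neighbour and a relative best known from liver, stood at 2.31, 2.47 and 1.65 CPM in ICZ mice, against 0 in each vehicle mouse. It had 76 reads in ICZ mice and none in vehicle mice, at least 28.6-fold higher when the vehicle group is set to 3 reads, and its edgeR adjusted p was 0.00149. That bound was 17.5 without vehicle replicate 2 and 18.8 without vehicle replicate 3. Its 3 ICZ values lie closer together than those of Cyp1a1.

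Nqo1, a quinone reductase driven by both AHR and NRF2, stood at 16.2, 21.2 and 15.8 CPM in ICZ mice, against 15.3, 15.3 and 9.97 CPM in vehicle mice. The groups just fail to overlap, but the log2 fold change of 0.40 ± 0.16 had an edgeR adjusted p of 0.524. Tiparp, a PARP enzyme that restrains the receptor and is a usual AHR target, stood at 62.3, 56.6 and 58.2 CPM in ICZ mice, against 66.6, 83.2 and 63.9 CPM in vehicle mice. It was lower in all 3 pairs, by a log2 fold change of -0.26 ± 0.12 that did not pass (edgeR adjusted p = 0.633). Ahr, the receptor, stood at 9.05, 8.34 and 11.7 CPM in ICZ mice and at 6.38, 8.52 and 9.38 CPM in vehicle mice, and the groups overlap. Arnt overlapped too, at 13.3 to 17 CPM in ICZ mice and 11.3 to 19.1 CPM in vehicle mice. Ahrr, the receptor's repressor, had 19 reads in ICZ mice and 17 in vehicle mice. Cyp1b1 had 0 and 2 reads, and Aldh3a1 had none in either group. These last 3 are at the limit of this depth.

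**Figure D2:**
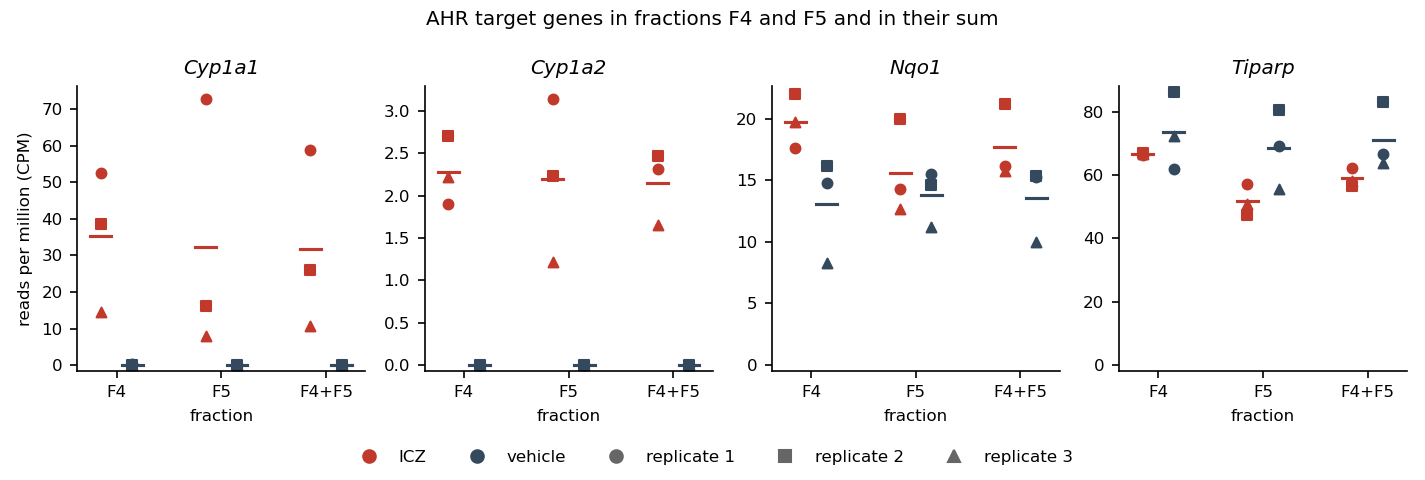
CPM values of Cyp1a1, Cyp1a2, Nqo1 and Tiparp in F4, in F5 and in their sum, ICZ mice in red left of vehicle mice in blue. Symbols are mice by replicate number and bars are group means. Cyp1a1 spans 10.8 to 58.9 CPM over the ICZ sums and stays under 0.1 CPM in the vehicle sums, while the Nqo1 groups separate in F4 and not in F5.

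The largest group of genes that fell were early response genes. Of 38 members 36 passed the filter on low counts. All 36 had a negative log2 fold change, while 51.7% of all genes had a positive one without the block. With the block 8 of the 36 passed, against 0.138% of all genes on the lower side. In all 3 same-numbered pairs 30 were lower, where 13.4% of all genes were. The median was -0.46 without the block and -0.52 with it, against 0.01 for all genes tested in either fit. In 7 of the 36 the ICZ and vehicle mice did not overlap, against 4.3% of all genes on the lower side. Over the 16 alternatives to the fit without the block, 32 to 36 of the 36 stayed negative, with medians between -0.70 and -0.24, the weakest without ICZ replicate 1.

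Dusp5, a phosphatase that switches off nuclear ERK, stood at 29.9, 59.3 and 62.3 CPM in ICZ mice, against 64.2, 99.3 and 119 CPM in vehicle mice. Every ICZ mouse lies below every vehicle mouse, and replicate 1 is the lowest of each group. The log2 fold change was -0.92 ± 0.11 (edgeR adjusted p = 0.00107). Ier5, an early gene that feeds back on heat shock factor, stood at 70.7, 115 and 120 CPM in ICZ mice, against 139, 198 and 200 CPM in vehicle mice, again without overlap. Rnd3, which loosens actin stress fibres, stood at 17.2, 32.4 and 38.0 CPM in ICZ mice, against 41.5, 57.3 and 63.7 CPM in vehicle mice. Its log2 fold change was -0.93 ± 0.13 (edgeR adjusted p = 0.00158).

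Of the AP-1 subunits, Fos, Jun and Junb fell, while Fosb, Fosl1 and Fosl2 had log2 fold changes of -0.83, -1.17 and -0.31 and did not pass (edgeR adjusted p = 0.416, 0.404 and 0.481). Fos stood at 212, 365 and 453 CPM in ICZ mice, against 369, 528 and 639 CPM in vehicle mice. Jun, its partner, stood at 297, 661 and 815 CPM in ICZ mice, against 594, 942 and 1139 CPM in vehicle mice. The groups of both overlap, while each ICZ mouse lies below its same-numbered vehicle mouse, and neither passed without the block. Junb (log2 fold change -0.57 ± 0.11), Btg2, an antiproliferative early gene (-0.60 ± 0.11), and Atf3, a stress factor that dimerises with Jun (-0.71 ± 0.13), also fell, with edgeR adjusted p of 0.0313, 0.0268 and 0.0472. Plk3, Gadd45b and Zfp36l1, named as the other members with the smallest p, had log2 fold changes of -0.84, -0.54 and -0.54 and did not pass (edgeR adjusted p = 0.176, 0.156 and 0.0604).

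Other genes that fell include growth factor signalling genes outside the list. Hbegf, a ligand of the EGF receptor, stood at 110, 251 and 305 CPM in ICZ mice, against 231, 406 and 560 CPM in vehicle mice (log2 fold change -0.88 ± 0.11). Srf, the factor that binds the CArG box shown above, stood at 10.4, 28.6 and 30.4 CPM in ICZ mice, against 22.9, 44.3 and 57.3 CPM in vehicle mice. Srf fell by 0.88 ± 0.13 on the log2 scale with an edgeR adjusted p of 0.00448. Trib1, a pseudokinase, fell by 0.66, and Gdf15, a stress hormone, fell by 0.90. Sertad1 and Nabp1 fell by 0.66 and 0.75. The EGF receptor ligands Areg and Ereg had log2 fold changes of -0.60 and -0.72 and did not overlap between groups, but did not pass (edgeR adjusted p = 0.203 and 0.598).

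**Figure D3:**
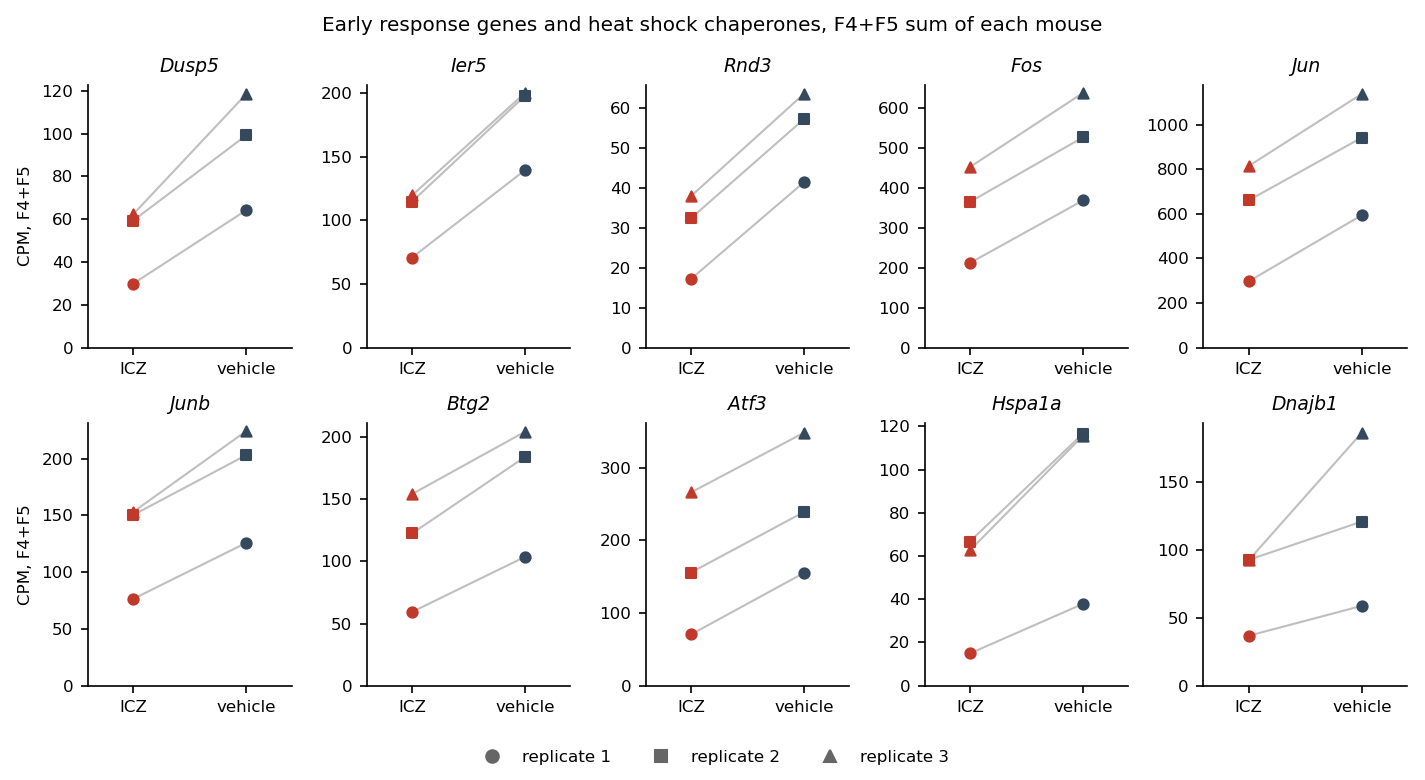
CPM values in the F4+F5 sum of each mouse, ICZ left and vehicle right, for 8 early response genes and the chaperones Hspa1a and Dnajb1. Grey lines join mice with the same replicate number. All 30 lines run lower on the ICZ side, and replicate 1 is the lowest mouse of each group.

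Of the heat shock chaperones, 3 of 15 tested members fell, against 0.138% of all genes, and none rose. The list summed to 2504, 4173 and 3979 RPM in ICZ mice, against 2475, 4102 and 5137 in vehicle mice, lower only in replicate 3. The median was -0.24 with the block, and 7 of the 15 were lower in all 3 pairs, against 13.4% of all genes. Hspa1a, an inducible HSP70, stood at 14.9, 66.7 and 62.6 CPM in ICZ mice, against 37.8, 117 and 116 CPM in vehicle mice (log2 fold change -0.99 ± 0.12, edgeR adjusted p = 0.00107). Hspa1b fell by 0.88 ± 0.12, but it is a near-identical copy of Hspa1a and reads could be split between them. Dnajb1, the HSP40 partner of HSP70, fell by 0.69 ± 0.12. Dnaja1 and Bag3, a co-chaperone, did not overlap between groups at log2 fold changes of -0.45 and -0.40 and did not pass. Of the 19 ER chaperone genes Dnajb9, a co-chaperone of BiP, was the only call, at 20.7, 26.2 and 29.4 CPM in ICZ mice, against 33.3, 41.3 and 40.9 CPM in vehicle mice. Hspa5, which encodes BiP, stood at 965, 1128 and 1137 CPM in ICZ mice, against 1236, 1428 and 1836 CPM in vehicle mice, with an edgeR adjusted p of 0.203. The early response and heat shock lists also differed between late and F2+F3 cells of vehicle mice, and the part of cell release and handling in the ICZ values was not tested. The stem cell list, which was likewise lowest in replicate 1 of each group, summed to 584, 1333 and 1590 RPM in ICZ mice, against 666, 1369 and 1517 in vehicle mice. With the F5 library of ICZ replicate 1 left out, 2 early response genes and 2 chaperones passed, and with both F5 libraries of replicate 3 left out, 4 and 2. These 2 settings of the blocked fit called 12 and 19 genes in all.

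The MHC class II genes, which present antigen to CD4+ T cells, had the most negative median log2 fold change of the 40 lists measured, but no member passed. All 7 tested members had negative log2 fold changes, with a median of -1.40 without the block, and 6 of them did not overlap between the groups, against 4.3% of all genes on the lower side. With the block the median was -1.17. In F2+F3 all 7 were negative too, with a median of -1.23 without the block. H2-Aa, the alpha chain of I-A, stood at 15.7, 21.7 and 27.0 CPM in ICZ mice, against 98.5, 65.8 and 45.9 CPM in vehicle mice. Its log2 fold change was -1.70 ± 0.30 without the block and -1.65 ± 0.50 with it, where the edgeR adjusted p was 0.681. DESeq2 without the block called it (adjusted p = 7.59e-06). Limma voom with the block called 2 members of the list, beside 18 of the 30 genes that edgeR called with the block. H2-Eb1 stood at 15.8, 21.7 and 20.1 CPM in ICZ mice, against 74.9, 39.5 and 40.3 CPM in vehicle mice. Cd74, the invariant chain, stood at 57.9, 60.5 and 62.6 CPM in ICZ mice, against 288, 107 and 82.7 CPM in vehicle mice. The ICZ mice are tight and the vehicle mice spread widely, with vehicle replicate 1 the highest. Over the 16 alternatives to the fit without the block, log2 fold changes ran from -1.71 to -0.66 for Cd74. For H2-Aa they ran from -1.93 to -1.38. Fewer cells that carry these transcripts and less RNA per cell cannot be told apart in bulk samples. The 13 tested genes of the myeloid list had a median log2 fold change of -0.47. Summed over all 18 the 3 ICZ mice held 116, 132 and 124 RPM, against 137, 172 and 180 in vehicle mice, and the part of such cells in the class II values was not tested.

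**Figure D4:**
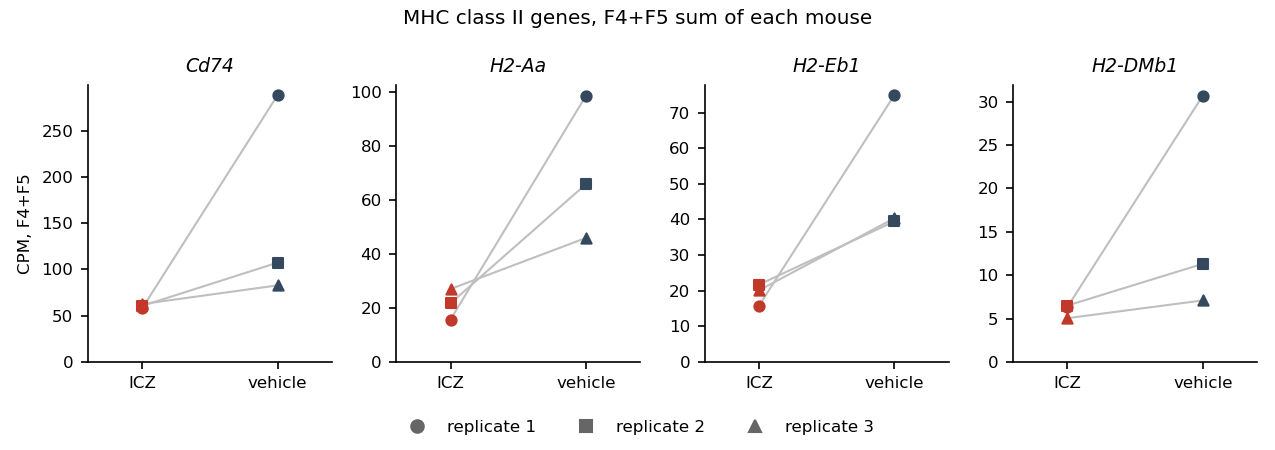
CPM values of 4 MHC class II genes in the F4+F5 sum of each mouse, ICZ left and vehicle right, with grey lines between mice of the same replicate number. The ICZ mice lie together (57.9 to 62.6 CPM for Cd74) below the vehicle mice (82.7 to 288 CPM), of which replicate 1 is the highest.

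Interferon response genes leaned the same way. Of 33 tested, 29 had negative log2 fold changes, 4 did not overlap on the lower side, against 4.3% of all genes, and the median was -0.25. None passed. Irf9, the DNA-binding part of the ISGF3 complex, stood at 42.8, 41.5 and 39.4 CPM in ICZ mice, against 57.3, 53.2 and 57.0 CPM in vehicle mice. Gbp7, a guanylate-binding protein, stood at 11.9, 12.4 and 12.7 CPM in ICZ mice, against 20.3, 20 and 16.4 CPM in vehicle mice. Ifit3 and Ifi44 had log2 fold changes of -0.72 and -0.69. Their edgeR adjusted p with the block lay between 0.168 and 0.203 for these 4 genes.

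Of 14 stroma genes tested with the block, 4 rose, against 0.0691% of all genes, and none passed once replicate 3 of both groups was left out. Col3a1, a fibrillar collagen of fibroblasts, stood at 2.01, 2.47 and 14.6 CPM in ICZ mice, against 0.563, 0.065 and 1.18 CPM in vehicle mice. Dcn, a proteoglycan of connective tissue, stood at 2.31, 0.777 and 21.3 CPM in ICZ mice, against 0.282, 0 and 1.77 CPM in vehicle mice. Col1a1 and Sparc had the same shape, with 11.9 and 12.4 CPM in ICZ replicate 3 and at most 2.41 CPM in the other 2 ICZ mice. In the F5 library of ICZ replicate 3 alone the stroma list summed to 256 RPM, against 96.4 to 140 in the other 11 libraries. None of the stroma genes passed with only F4 for replicate 3 of both groups either, and without replicate 1 of both groups 7 passed. That last setting called 111 genes in all, against 30 in the full blocked fit. Serping1, an inhibitor of complement C1, and Gja1, which encodes connexin 43, rose on 112 and 103 ICZ reads against 29 and 26 vehicle reads. The B and plasma cell list summed to 28.5, 500 and 1924 RPM in ICZ mice, against 80.8, 90.3 and 807 in vehicle mice. Replicate 1 runs the other way from replicates 2 and 3, and none of its genes passed.

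Among the other genes was Bco1, the enzyme that splits beta-carotene into retinal. It stood at 47.5, 16.7 and 23.5 CPM in ICZ mice, against 17.4, 5.98 and 3.62 CPM in vehicle mice. It rose by a log2 fold change of 1.81 ± 0.23 (edgeR adjusted p = 0.0214) and was called in 9 of the 12 alternative settings. Tmem86b, a lysoplasmalogenase, stood at 105, 71.8 and 62.7 CPM in ICZ mice, against 73.6, 40.2 and 41.8 CPM in vehicle mice (log2 fold change 0.65 ± 0.11, edgeR adjusted p = 0.0186). For both, each ICZ mouse is above its same-numbered vehicle mouse and replicate 1 is the highest of each group. Acta1, the skeletal muscle actin, stood at 39.1, 21.0 and 25.8 CPM in ICZ mice, against 4.32, 9.82 and 10.3 CPM in vehicle mice, without overlap. Its log2 fold change was 1.79 ± 0.35 without the block and did not pass in either edgeR fit (adjusted p = 0.679 with the block), while DESeq2 without the block called it at an adjusted p of 7.22e-05. The smooth and skeletal muscle list summed to 460, 550 and 482 RPM in ICZ mice, against 511, 493 and 514 in vehicle mice. Only 4 of its 16 members, Acta1 among them, were tested without the block, and 3 of these had positive log2 fold changes (median 0.31). Without overlap on the higher side were 2 of the 4, against 4.32% of all genes.

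Id2, an inhibitor of basic helix-loop-helix factors, fell to 199, 264 and 228 CPM in ICZ mice, against 290, 365 and 398 CPM in vehicle mice (log2 fold change -0.60 ± 0.11, edgeR adjusted p = 0.0268). G6pc, the catalytic subunit of glucose-6-phosphatase, stood at 132, 82.0 and 49.9 CPM in ICZ mice, against 166, 127 and 97.1 CPM in vehicle mice, and fell by 0.64 ± 0.12 on the log2 scale. Here replicate 1 is the highest of each group, the reverse of the early response genes. Mbl2, a lectin of luminal defence, had 29 reads in ICZ mice and 121 in vehicle mice, and its log2 fold change of -1.87 ± 0.40 fell short of the threshold (edgeR adjusted p = 0.0739). Aqp8, a water channel, and Slc9a3, the sodium-proton exchanger NHE3, had log2 fold changes of 1.36 ± 0.29 and -0.58 ± 0.12 and adjusted p of 0.0739 and 0.0637 in the same edgeR fit.

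Other genes were named for the smallest p among those without overlap whose mean reached 5 CPM in either group, and none of these passed the threshold. On the lower side Slc16a5, a monocarboxylate transporter, stood at 55.8, 57.9 and 60.8 CPM in ICZ mice, against 81.0, 83.2 and 79.0 CPM in vehicle mice. Agpat2, an acyltransferase of triglyceride synthesis, stood at 48.8, 48.2 and 46.0 CPM in ICZ mice, against 68.3, 65.5 and 60.9 CPM in vehicle mice. Retsat, a retinol saturase, stood at 141, 158 and 149 CPM in ICZ mice, against 220, 197 and 192 CPM in vehicle mice. Nfkbiz, Hexim1 and Spsb1 had log2 fold changes of -0.49, -0.50 and -0.58 with the block. These 6 have little spread within either group, which the choice by smallest p without overlap favours. On the higher side, apart from Cyp1a1 and Acta1, were Hist1h4h, Itih5, Kctd12, Atr, Gstm5, Arfgef3, Wdr70, Rnu12, Cep192 and Cyp2j6, with log2 fold changes between 0.43 and 0.97. Cyp2j6, an epoxygenase of the gut, stood at 136, 121 and 127 CPM in ICZ mice, against 111, 89.4 and 84.5 CPM in vehicle mice. Hist1h4h belongs to a family of near-identical histone genes, so its reads are uncertain.

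The lineage markers of the crypt showed no call. The stem cell list had a median log2 fold change of 0.03, with 9 of 18 members on each side. Lgr5, the defining stem cell receptor, stood at 5.43, 12.6 and 16.6 CPM in ICZ mice and at 8.26, 12.5 and 16.3 CPM in vehicle mice and was lowest in replicate 1 of both groups. Olfm4 did likewise, at 225, 547 and 676 CPM in ICZ mice and 292, 511 and 538 CPM in vehicle mice. Both were picked after their values were seen. Znrf3 was the only stem cell gene without overlap on the higher side and Bmi1 the only one on the lower. This is near the share of all genes, 4.32% on the higher side and 4.3% on the lower. The Paneth cell list summed to 7210, 16239 and 25441 RPM in ICZ mice, against 8297, 14674 and 21620 in vehicle mice.

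The division genes leaned upward. Of 35 DNA replication genes 33 had positive log2 fold changes (median 0.23) and 14 were higher in all 3 pairs, and of 35 mitosis genes 32 were positive (median 0.21) and 17 were higher in all 3 pairs, where 14.7% of all genes were. Rrm2, the regulated subunit of ribonucleotide reductase, stood at 25.5, 30.4 and 27.6 CPM in ICZ mice, against 15.1, 20.5 and 25 CPM in vehicle mice. Ccna2, which encodes cyclin A2, stood at 37.5, 54.4 and 53.8 CPM in ICZ mice, against 31.8, 38.6 and 39.4 CPM in vehicle mice. Neither passed (edgeR adjusted p = 0.3 and 0.297 with the block). In each list 2 of the 35 genes were without overlap on the higher side, Rrm2 among them, against 4.32% of all genes. The medians of the DNA replication and mitosis lists were 0.12 and 0.10 in F4, and 0.22 and 0.25 in F5. The unscaled list sums were higher in ICZ mice for replicates 1 and 2. For replicate 3 they were lower, at 1370 against 1428 RPM and 2388 against 2475 RPM.

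Rare secretory types leaned upward too. Of 14 tuft cell genes 12 were positive (median 0.49), and 4 did not overlap on the higher side, against 4.32% of all genes. Dclk1, a kinase that defines tuft cells, stood at 17.1, 10.6 and 11.6 CPM in ICZ mice, against 9.67, 8.84 and 7.39 CPM in vehicle mice. ICZ replicate 1 is the highest, and its F5 library, the one rich in mitochondrial reads, held 27.7 CPM of Dclk1. With F4 alone for ICZ replicate 1 the log2 fold change of Dclk1 was 0.36 in place of 0.60, and the tuft cell median was 0.31. The tuft cell median was 0.17 in F4 and 0.90 in F5. Of 22 enteroendocrine genes 20 were positive (median 0.34), and the list median was 0.15 in F4 and 0.40 in F5. Pax6, Isl1, Tac1 and Scg5 were free of overlap on the higher side, as were 4.32% of all genes. Among goblet genes Agr2, a disulfide isomerase needed for mucin folding, stood at 268, 264 and 259 CPM in ICZ mice, against 166, 224 and 207 CPM in vehicle mice, and Muc13 at 1972, 1887 and 1820 CPM in ICZ mice, against 2601, 2365 and 2459 CPM in vehicle mice. None of these genes passed.

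**Figure D5:**
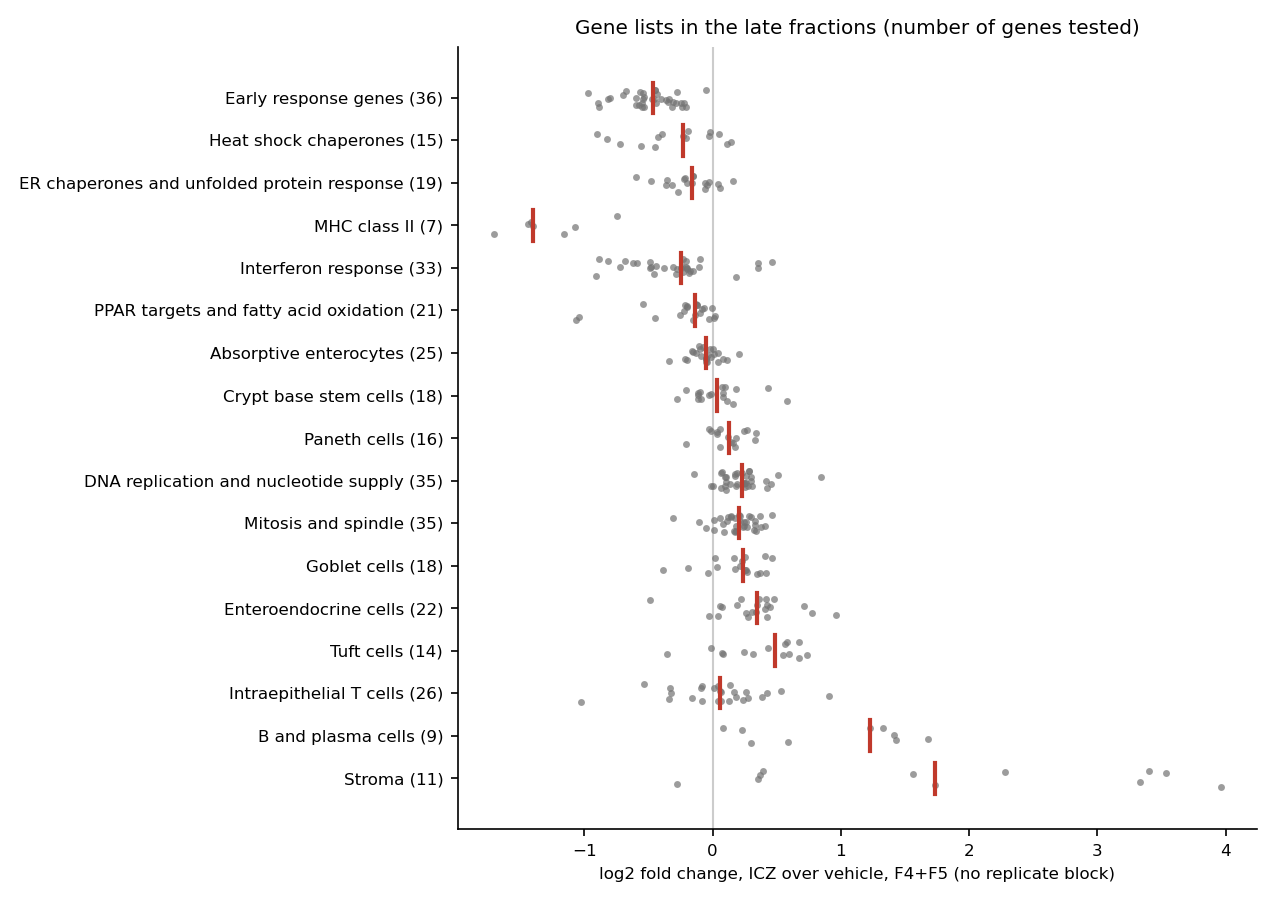
Log2 fold changes, ICZ over vehicle, of the tested members of 17 gene lists in the F4+F5 sums without the replicate block, with the list median as a red bar and the number of genes tested in parentheses. The early response genes lie below 0 throughout (median -0.46), MHC class II lies lowest (-1.40), the tuft cell median is 0.49, and the stem cell median is 0.03.

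Tested separately, F4 and F5 gave no gene past the threshold without a block, among 12092 genes in F4 (0%) and 12244 in F5 (0%), with 349 and 342 genes at an unadjusted p under 0.05. DESeq2 called 4 in F4 (Cyp1a1, Cyp1a2, Acta1 and H2-Eb1) and 5 in F5 (Cyp1a1, Col1a1, H2-Aa, H2-Eb1 and Ddit3). Cyp1a1 stood at 52.5, 38.7 and 14.4 CPM in F4 of ICZ mice, against 0.203, 0.133 and 0 CPM in vehicle mice. In F5 it stood at 72.7, 16.2 and 8.08 CPM in ICZ mice, against 0 in each vehicle mouse. The pooled Nqo1 ratio was 1.5 in F4, with a counting interval of 1.27 to 1.78, and 1.19 in F5, with an interval of 1.01 to 1.41. The early response median was -0.29 in F4 and -0.64 in F5. Dusp5 stood at 25.4, 67.6 and 59.1 CPM in F4 of ICZ mice, against 42.7, 79.0 and 92.6 CPM in vehicle mice, and at 39.1, 51.7 and 62.8 CPM in F5 of ICZ mice, against 81.3, 119 and 138 CPM in vehicle mice. The groups separate in F5 and overlap in F4.

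The difference between the 2 fractions was itself tested with the mouse as a block. Of 13431 genes 1 passed (0.00745%), a gene listed as RP23-37C14.2 that follows the pancreas genes described above. For the early response list, 32 of 36 members had a more negative log2 fold change in F5 than in F4, with a median difference of -0.35 against 0.00 for all genes, and none passed. Against F2+F3, the late effect of ICZ differed in 3 of 15008 genes (0.02%), RP23-37C14.2, Pnlip and Sdk2. The Cyp1a1 difference was -0.61 ± 1.26 on the log2 scale, so a larger or a smaller induction in late cells was not detectable with 3 mice a group. In F2+F3 Cyp1a1 stood at 90.8, 30.5 and 15.3 CPM in ICZ mice, against 0.161, 0 and 0 CPM in vehicle mice, with the mice in the same order as in the late sums. Of the early response genes, 32 of 36 had a more negative effect in the late sums than in F2+F3 (median difference -0.39), and of 26 intraepithelial T cell genes all 26 had a more positive one (median difference 1.08, against -0.02 for all genes). None of these genes passed. Trbc2, the T cell receptor beta constant region, stood at 17, 9.54 and 13.6 CPM in late sums of ICZ mice, against 16.1, 9.56 and 14.6 CPM in vehicle mice, and at 10.8, 9.52 and 11.9 CPM in F2+F3 of ICZ mice, against 21.5, 18.6 and 38.3 CPM in vehicle mice. The ICZ and vehicle mice thus overlap in the late sums and are apart in F2+F3.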

How the data were processed

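The authors deposited raw read counts per gene from 3' tag (QuantSeq) libraries. The submitters' processing notes name FastQC 0.11.2, BWA 0.7.17-r1188, SAMtools 1.10 and HTSeq 0.11.2, with GRCm38.p6 and mm10. The strand setting of the counting is not given in the sources used here, so overlapping and antisense genes cannot be told apart. Of the table's gene identifiers, 52480 of 54146 matched GENCODE M21 with their version. 1 column of per-sample values was not used. The 5 rows that name no gene were left out, which kept 51.6% to 59.2% of each library's reads. The members of the comparison and the gene lists were chosen with earlier results of these data known.

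F4 and F5 counts were added per mouse. The main test was edgeR 4.0.16's quasi-likelihood F test in R 4.3.3 (filterByExpr, TMM scaling, robust estimation, no block), with Benjamini-Hochberg adjustment over all genes tested and a threshold of 0.05. The standard error is the log2 fold change divided by the square root of F. CPM values use TMM-scaled library sizes, while list sums are unscaled RPM values. The replicate number pairs the mice by the data alone: deviations of same-numbered mice from their group means correlated at 0.410, 0.101 and 0.433 in the sums (log2 CPM with a prior count of 2), and at 0.446, 0.0909 and 0.438 with a prior count of 5. The labels state no shared litter or day. In F4 and F5 alone the numbers did not pair the mice. DESeq2 1.42.0 and limma 3.58.1 were alternatives, and the fits of the F4+F5 sums with and without the block were tested on simulated counts with known changes. The simulated counts had the same dispersion for all genes, so they do not show how the fits perform on the real spread between mice. The p-values of ICZ against vehicle without a block measure the spread between mice labelled as biological replicates. Those of the replicate block measure the spread left once what same-numbered mice share is removed. Those of the mouse block measure how much differences within a mouse vary between mice. Intervals of pooled reads (exact, 95%) cover counting error only. Replicate libraries differed by more than sampling noise in each of 12 pairs (chi-square of 5.18 to 111 per degree of freedom), so none was counted as a repeat.

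Named genes were the AHR list, up to 12 genes per direction past the threshold without overlap between groups and with a mean that reached 5 CPM (filled by the smallest p), up to 4 members per list and up to 5 per direction in the other comparisons. The other calls of the blocked fit were named because they are few. Promoters came from RefSeq. Figures were drawn with matplotlib 3.10.9 in Python 3.11.15.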

Additional observations from a re-analysis of the deposited data

Results flagged for a closer look

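The effect of ICZ differed between fractions, by the test of the difference itself, in 3 genes. RP23-37C14.2 (ENSMUSG00000029882.5, named 2210010C04Rik in a table of gene names) had a log2 difference of -8.35 between its ICZ effects in F5 and in F4 (edgeR adjusted p = 0.0219). Between F4+F5 and F2+F3 the difference was -6.58 (edgeR adjusted p = 0.00967). In F4 it had 9, 0 and 56 reads in the 3 ICZ mice, against 0 in each vehicle mouse, and in F5 39, 0 and 1526 reads in ICZ mice, against 0, 0 and 2357 in vehicle mice. Pnlip, pancreatic lipase, had a late against F2+F3 difference of -6.49 (edgeR adjusted p = 0.00967), with 37, 0 and 1320 reads in F5 of ICZ mice and 1966 in F5 of vehicle replicate 3. Both follow the 2 F5 libraries rich in exocrine pancreas genes. Sdk2, a cell adhesion protein, had a difference of 5.38 (edgeR adjusted p = 0.0153), resting on 139 reads over all 24 libraries, with 17 and 34 of them in F4 and F5 of ICZ replicate 1.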

How the results depend on the processing

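For ICZ against vehicle in F4+F5, the fit without the block called 0 genes. The count was 57 with no filter on low counts, 6 with DESeq2, 1 with limma voom, 30 with the replicate block, 1 with F4 and F5 weighted equally and 1 with 12 libraries and the mouse as a correlated block. Leaving out 1 mouse gave 0 to 1. With the replicate block the 30 became 174 with no filter, 16 without robust estimation, 12 with F4 alone for ICZ replicate 1, 13 with F4 alone for replicate 1 of both groups and 19 with F4 alone for replicate 3. Leaving out a same-numbered pair gave 28 without replicate 3, 106 without replicate 2 and 111 without replicate 1. In F4 the 0 became 26 with no filter, 4 with DESeq2, 1 with limma voom, 6 with the block and 1 without robust estimation, and 0 to 1 without 1 mouse. In F5 it became 37, 5 and 6 with no filter, DESeq2 and the block, and 0 to 1 without 1 mouse. For F5 minus F4 the 1 call became 14 with no filter and 0 with limma voom or without the mouse as a block, with 0 to 9 without 1 mouse. For F4+F5 minus F2+F3 the 3 became 103 with no filter and 0 without the mouse block, with 0 to 32 without 1 mouse. For vehicle F4+F5 against F2+F3 the 1335 became 56 without the mouse block and 218 to 1331 without 1 mouse. Arnt had log2 fold changes of -0.13 to 0.25 over the fits without 1 mouse, negative without ICZ replicate 1 (-0.07), vehicle replicate 2 (-0.01) and vehicle replicate 3 (-0.13), and -0.047 with F4 alone for ICZ replicate 1. Without 1 mouse the pancreas genes ranged from -7.62 to 4.18 (Cpa1), -9.74 to 4.04 (Prss2), -9.24 to 0.45 (Cpb1) and -7.81 to 1.70 (Cela3b) for F5 minus F4, and from -7.11 to 5.70 (Pnlip), -4.51 to 5.88 (Prss2) and -7.00 to 5.90 (Try4) against F2+F3, positive without vehicle replicate 3. The cause was not tested. Among gene values of the blocked fit, 284 stayed on their side of the threshold, 114 lost the call, 10 gained one and 0 reversed. Ahrr, Cyp1b1 and Aldh3a1 were limited by depth.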
